A study of Homo sapiens with 2 samples.

Results

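Lysosomal enzymes, lysosomal membrane proteins, subunits of the lysosomal proton pump and autophagy genes were compared between 2 arrays of PC-3 cells. The set holds 42 genes. The array names 19775 genes by at least 1 probe set of a single gene, and GLB1 of the set is not among them. The 42 were chosen by their function, with earlier results of these data known. The PC-3 line comes from a human prostate cancer that had spread to bone, and it needs no androgen to grow. The control array (siCONTROL) carried RNA from PC-3 cells transfected with a control vector for a short hairpin RNA (shRNA), and the knockdown array (siSHISA2) RNA from PC-3 cells transfected with a vector against SHISA2. Both groups are the same line, with 1 array each. The labels do not say whether a pool or a selected clone was used, or when the cells were harvested. The comparison asks how the transcripts of this digestive system differ when SHISA2, described by the series as more highly expressed in high-grade prostate cancer, is knocked down.

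Each gene was read by the probe set whose log2 signal was highest on average, and values are log2 ratios of siSHISA2 over siCONTROL. Signals under 47.9, the median of all signals, were raised to that floor, and a gene counted as measured when at least 1 of its 2 signals was above it. Of the 42 genes 40 were measured, each with both signals above the floor, and 33 of them had both signals above 387.3, the 75th percentile of all signals. There are no replicates, so no difference was tested, and having 1 array per group sets the precision. To gauge technical spread, the ratios of 2 probe sets of the same gene differed with an SD (divided by the square root of 2) of 0.29 over 6428 genes, and of 0.15 over 3088 genes when the floor was raised to 387.3. Both probe sets were read on the same 2 arrays, so this leaves out the variation between cultures, labellings and arrays.

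The targeted gene SHISA2 read 3536 with siCONTROL and 1506 with siSHISA2 (log2 ratio -1.23). Each array held 54675 probe sets, the share of signals above the floor was 49.2% and 50.8%, and the trimmed mean signal was the same in both. All 5 markers listed for PC-3 cells were measured, among them the keratins KRT8 and KRT18. The prostate marker KLK3, low in this line, read 242.3 and 251. Of 15 markers of leukocytes, fibroblasts and endothelium 7 were measured, and COL1A1 was the only one of them with a signal above 387.3.

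Lysosomes are acidic compartments in which hydrolases break down proteins, sugars and lipids. A proton pump, the V-ATPase, keeps them acidic, and heavily glycosylated membrane proteins line them. Autophagy wraps cytoplasm in a double membrane and delivers it there, and the transcription factor TFEB is known to raise many of these genes together by binding the CLEAR motif, a palindrome of 10 bases around the E-box core CACGTG. In tumour cells the system is known to recycle nutrients, and cathepsins that reach the cell surface can cut matrix.

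The promoters below show where the core lies in 4 of the genes, chosen because they hold more than 1 copy of the core. Each is part of the 250 bases before the gene's start in RefSeq (build GRCh38.p14), printed 5′ to 3′ on the plus strand, with each CACGTG core in capitals. The core and the full motif read the same on either strand, and every full motif also counts as a core.
GAA, chr17:80101485-80101575: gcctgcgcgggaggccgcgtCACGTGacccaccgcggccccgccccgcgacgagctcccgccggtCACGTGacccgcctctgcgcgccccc
MCOLN1, chr19:7522563-7522623: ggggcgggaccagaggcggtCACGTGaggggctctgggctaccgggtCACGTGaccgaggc
LAMP1, chr13:113297027-113297236: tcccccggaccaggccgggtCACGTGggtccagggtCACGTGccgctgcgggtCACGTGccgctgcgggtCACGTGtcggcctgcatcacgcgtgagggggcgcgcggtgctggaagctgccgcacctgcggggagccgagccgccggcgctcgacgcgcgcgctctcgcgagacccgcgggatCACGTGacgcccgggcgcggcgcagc
CTSA, chr20:45891273-45891334: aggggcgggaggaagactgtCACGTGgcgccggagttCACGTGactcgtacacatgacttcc
GAA holds 2 full motifs (each core flanked by gt and ac), MCOLN1 holds 1 full motif and 1 further core, LAMP1 holds 5 cores and CTSA holds 2.

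The promoter table matched 33 of the 42 genes by symbol. CACGTG stood in a window of 9 of them (27.3%), against 7.73% of the 27305 genes of the table, and the full CLEAR motif in 2 of them (6.06%) against 0.374%. A gene with several starts has several windows, and it counted when any of them held the motif. CD63 had 8 windows. By role, the core was found in 3 of 4 membrane protein genes (LAMP1, CD63 and MCOLN1), 4 of 14 hydrolases and activators (CTSA, CTSD, GAA and NEU1), 1 of 4 pump genes (ATP6V0D1) and 1 of 10 autophagy genes (ATG3). A match describes the letters only.

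The genes as a whole differed little between the arrays. Of the 40 measured genes 21 had a ratio above 0 (52.5%, against 52.2% of the 12931 measured genes), and their median log2 ratio was 0.01, as was the median of all measured genes. No gene was 2-fold apart, against 1.48% of all measured genes. At a smaller size, 1.3-fold (0.38 on the log2 scale), 1 gene was higher in the knockdown array (GAA), against 10.8% of all measured genes, and 2 were lower (ATP6AP1 and CTSH), against 9.30%. Among the 33 genes whose signals both exceeded 387.3, 17 were above 0 (51.5%, against 50.2% of the 7650 such genes) and 0 were 2-fold apart (0.118%). None of the 33 was 1.3-fold higher, against 3.20%, and 1, ATP6AP1, was 1.3-fold lower, against 4.59%. As deposited, the shares past 1.3-fold and 2-fold were thus below the background, and the shares above 0 close to it. Among the 33 genes these background shares stand for so few genes that counts of 0 and 1 are near them. The order also depends on the probe sets. Without those of the _x_at and _s_at kinds, 4 of 27 genes were 1.3-fold higher, against 1260 of 10144, and 0 were lower, against 1072. Dividing each array by its median signal, which lies near the floor, moved the median of all measured genes from 0.01 to -0.12. It left 25% of the 40 genes above 0, against 29.8% of all measured genes, so the signs of small ratios depend on that choice.

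**Figure D1:**
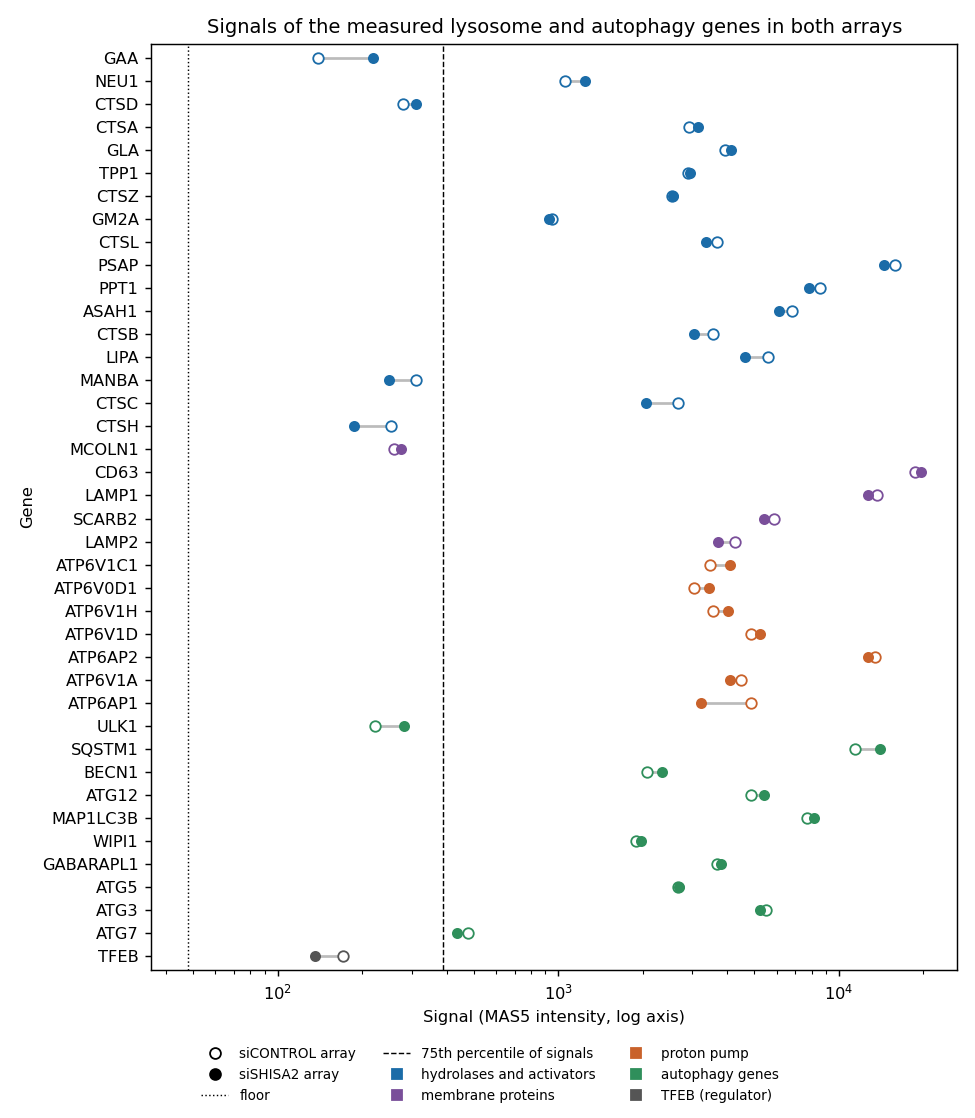
Signal of each of the 40 measured genes (rows, grouped by role) in the siCONTROL array (open circles) and the siSHISA2 array (filled circles), on a log axis of MAS5 intensity, with the floor of 47.9 (dotted) and the 75th percentile of 387.3 (dashed). The 2 circles of most genes lie close together, and ATP6AP1 (4854 and 3217) and GAA (138.7 and 219.2) have the widest gaps.

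The 4 roles had medians on different sides of 0. Hydrolases and activators had a median log2 ratio of -0.13 with 7 of 17 above 0, and membrane proteins one of -0.11 with 2 of 5 above 0. Pump subunits had a median of 0.11 with 4 of 7 above 0, and autophagy genes one of 0.07 with 8 of 10 above 0, against 52.2% above 0 of all measured genes. After division by the median signal the last 2 medians lay below 0, at -0.03 and -0.07. Set against the median of all genes, each role stayed on its side in all 5 scalings that were tried. The hydrolase median differed from it by -0.15 to -0.13 and the membrane protein median by -0.14 to -0.12, while the pump median differed by 0.09 to 0.11 and the autophagy median by 0.06 to 0.07. Division by the median signal and setting the median ratio to 0 shift nearly all ratios by the same amount. They could therefore hardly change this comparison, while quantile normalization and loess could. The probe sets taken also matter. Averaging a gene's probe sets gave -0.13 for hydrolases, -0.02 for membrane proteins, 0.05 for the pump and 0.14 for autophagy genes, and leaving out _x_at and _s_at probe sets gave -0.03 over 13, -0.16 over 4, 0.14 over 4 and 0.15 over 5 genes. No difference between roles was tested.

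Among the proteases, the cysteine cathepsins CTSC, CTSH and CTSB read lower in the knockdown array. CTSC, a dipeptidyl peptidase that activates granule proteases, read 2676 with siCONTROL and 2059.5 with siSHISA2, a log2 ratio of -0.38 just short of 1.3-fold. All 4 of its measured probe sets were below 0. The next by signal read -0.14 and the third -0.12, both nearer to 0, and the dimmest, at 96.6 and 54.6, read -0.82. Of the genes with both signals above 387.3, 4.61% had a ratio as low as -0.38. CTSB, an endopeptidase and carboxypeptidase often raised in invasive tumours, read 3561 and 3049 (-0.22). Its 5 measured probe sets were also all below 0, from -0.51 to -0.04. CTSH, an aminopeptidase, read 254.1 and 187.2 (-0.44) on its only probe set, at signals below 387.3.

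The other proteases lay nearer to 0. CTSL, an endopeptidase, read 3684 and 3366 (-0.13), and the carboxypeptidase CTSZ 2533 and 2567 (0.02). CTSD, the main aspartic protease, read 280.4 and 312.3 (0.16), and CTSA, a serine carboxypeptidase that also protects sialidase and beta-galactosidase, 2916 and 3138.5 (0.11). TPP1, a tripeptidyl peptidase lost in a childhood neuronal storage disease, read 2899 and 2947 (0.02), but its probe sets disagreed. The next one read 705.6 and 600.1 (-0.23), while the 2 dimmest read 196.4 and 360.2 (0.88) and 109.3 and 218.2 (1.00). The ratios of CTSA, CTSZ and TPP1 were below 0 after division by the median signal, and that of CTSZ also with the median ratio of the measured probe sets set to 0.

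Enzymes that cut sugars pointed in different directions. GAA, the acid alpha-glucosidase that breaks down glycogen, had the highest ratio of the 40 genes, at 138.7 with siCONTROL and 219.2 with siSHISA2 (log2 ratio 0.66, 1.58-fold). It has 1 probe set, both signals were below 387.3, and 3.71% of all measured genes had a ratio as high. Its promoter is the one with 2 full CLEAR motifs, and no link between motif and ratio was tested. NEU1, the lysosomal sialidase, read 1054 and 1243 (0.24), and GLA, alpha-galactosidase A, 3942 and 4127 (0.07, and below 0 after division by the median signal). MANBA, beta-mannosidase, was on the other side at 310 and 249.5 (-0.31), with signals below 387.3.

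GLB1 and HEXA have no value. The only probe set of GLB1, beta-galactosidase, is assigned to several genes and names none. HEXA, the alpha subunit of beta-hexosaminidase, had 4 probe sets, and none was above the floor in either array. The highest of its signals was 29.5.

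The 3 lipid enzymes and the 2 activator proteins all read below 0, while 52.2% of all measured genes were above 0. LIPA, the acid lipase that frees cholesterol from lipoprotein esters, had the lowest ratio of the 5, at 5569 with siCONTROL and 4630.4 with siSHISA2 (-0.27). ASAH1, acid ceramidase, read 6788 and 6126 (-0.15), with all 4 measured probe sets below 0 (-0.19 to -0.02). PPT1, which removes palmitate from proteins, read 8555 and 7797 (-0.13). PSAP, the precursor of the saposins that present sphingolipids to their enzymes, read 15815 and 14450 (-0.13), and -0.20 on its other probe set. GM2A, the activator that hands ganglioside to hexosaminidase, read 949.1 and 926.6 (-0.03), with probe sets from -0.74 to 0.13. On the probe set with the highest mean signal, each of these ratios except that of LIPA was smaller in size than the technical SD of 0.15 for bright genes.

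Membrane proteins stayed within 0.21 of 0. LAMP1 and LAMP2, the main glycoproteins of the lysosomal membrane, read 13659 and 12692 (-0.11) and 4261 and 3696 (-0.21). Their other probe sets were on both sides of 0, from -0.34 to 0.21 for LAMP1 and up to 0.17 for LAMP2. SCARB2, which carries glucocerebrosidase to the lysosome, read 5880.4 and 5405 (-0.12), again with probe sets of both signs (-0.23 to 0.25). The tetraspanin CD63 read 18646 and 19588 (0.07), and the calcium channel MCOLN1 260.5 and 275.1 (0.08), both below 0 after division by the median signal, and CD63 also after quantile normalization. LAMP1 is the gene with 5 CACGTG cores and MCOLN1 one with a full motif, and no link between motif and ratio was tested.

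In the proton pump, an accessory protein had a ratio apart from the core subunits. ATP6AP1, which helps assemble the pump and guide it to its membrane, read 4854 with siCONTROL and 3217 with siSHISA2 (log2 ratio -0.59, 66.3% of the control signal). This was the lowest ratio of the 40 genes, at -3.84 times the technical SD of bright genes, and 1.36% of the genes with both signals above 387.3 had one as low. It rests on 1 probe set, of the _s_at kind, which can share probes with other transcripts, and could not be compared with another. The second accessory protein, ATP6AP2, also known as the prorenin receptor, read 13475 and 12675 (-0.09, and -0.19 on its other probe set).

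Of the 5 core subunits 4 read above 0, against 52.2% of all measured genes. ATP6V1C1, which links the peripheral stalks to the cytosolic V1 sector, read 3484.5 and 4089 (0.23). Its other probe sets ranged from -0.03 to 0.38. ATP6V0D1, which joins the central stalk to the membrane sector, read 3040.5 and 3448 (0.18), ATP6V1H, a regulatory subunit, 3548.5 and 4017 (0.18), and ATP6V1D, part of the central stalk, 4860 and 5237 (0.11, below 0 after division by the median signal). ATP6V1A, the catalytic subunit that binds ATP, was the exception at 4488 and 4102 (-0.13, and -0.09 on its other probe set). Their median was 0.18.

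Among the autophagy genes, the cargo receptor SQSTM1 was read by the most probe sets, and all 5 were higher in the knockdown array. SQSTM1, also called p62, binds ubiquitinated cargo and is itself degraded by autophagy. Its brightest probe set read 11407 with siCONTROL and 14036 with siSHISA2 (log2 ratio 0.30, 1.23-fold), a ratio that 5.56% of the genes with both signals above 387.3 reached. The next read 1494 and 2004 (0.42), and the third 1070.1 and 1652 (0.63). The 2 dimmest read 64.8 and 124.9 (0.95) and 58.7 and 83.2 (0.50). SQSTM1 stayed above 0 in all 5 scalings, and without probe sets that can share probes its value was 0.63.

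MAP1LC3B and GABARAPL1, of the family that SQSTM1 binds on the forming membrane, also read above 0 on both of their measured probe sets. MAP1LC3B, the usual autophagosome marker, read 7669 and 8183 (0.09), and 5136 and 6584 (0.36) on its other probe set. GABARAPL1, of the sister family, read 3669 and 3811 (0.05), and 1538.5 and 2198 (0.51) on the other. Both are at the low end on the probe set the rule takes, where division by the median signal puts them below 0.

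Of the genes for the start of autophagy, ULK1 and BECN1 read higher in the knockdown array. ULK1, the kinase that starts it, read 222.4 and 281.5 (0.34) at signals below 387.3. BECN1, a subunit of the lipid kinase complex that marks the new membrane, read 2076 and 2351 (0.18), and 0.19 on its other probe set. WIPI1, which binds the lipid made there, read 1896 and 1969 (0.05), with its other probe set at -0.11. ULK1 and BECN1 were above 0 in all 5 scalings, and WIPI1 in all but division by the median signal.

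The genes of the conjugation steps lay on both sides of 0. ATG12, the ubiquitin-like protein that is joined to ATG5, read 4868 and 5399 (0.15), with all 3 measured probe sets above 0 (0.02 to 0.15). ATG5 itself read 2676.5 and 2691 (0.01, below 0 after division by the median signal and with the median ratio set to 0), with probe sets from -0.07 to 0.20. ATG3, the enzyme that attaches lipid to LC3, read 5504 and 5224.5 (-0.08). ATG7, which activates both ubiquitin-like proteins, read 475 and 434.1 (-0.13), with probe sets up to 0.35.

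TFEB, the regulator, was dim. It read 171.1 with siCONTROL and 135.6 with siSHISA2 (log2 ratio -0.34), and its other probe set was under the floor in both. All measured genes with a ratio as low made up 11.3%. The 9 measured genes with a CACGTG core before their start had a median ratio of 0.11 (7 of 9 above 0, from -0.11 to 0.66). The 23 measured ones without it had a median of 0.01 (12 of 23 above 0, from -0.59 to 0.34). Of all measured genes 52.2% were above 0. Division by the median signal put CTSA, CD63 and MCOLN1 of the 7 below 0. It did the same to CTSZ, TPP1, GLA, ATP6V1D, GABARAPL1, MAP1LC3B, ATG5 and WIPI1 of the 12. The split by core was not tested.

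**Figure D2:**
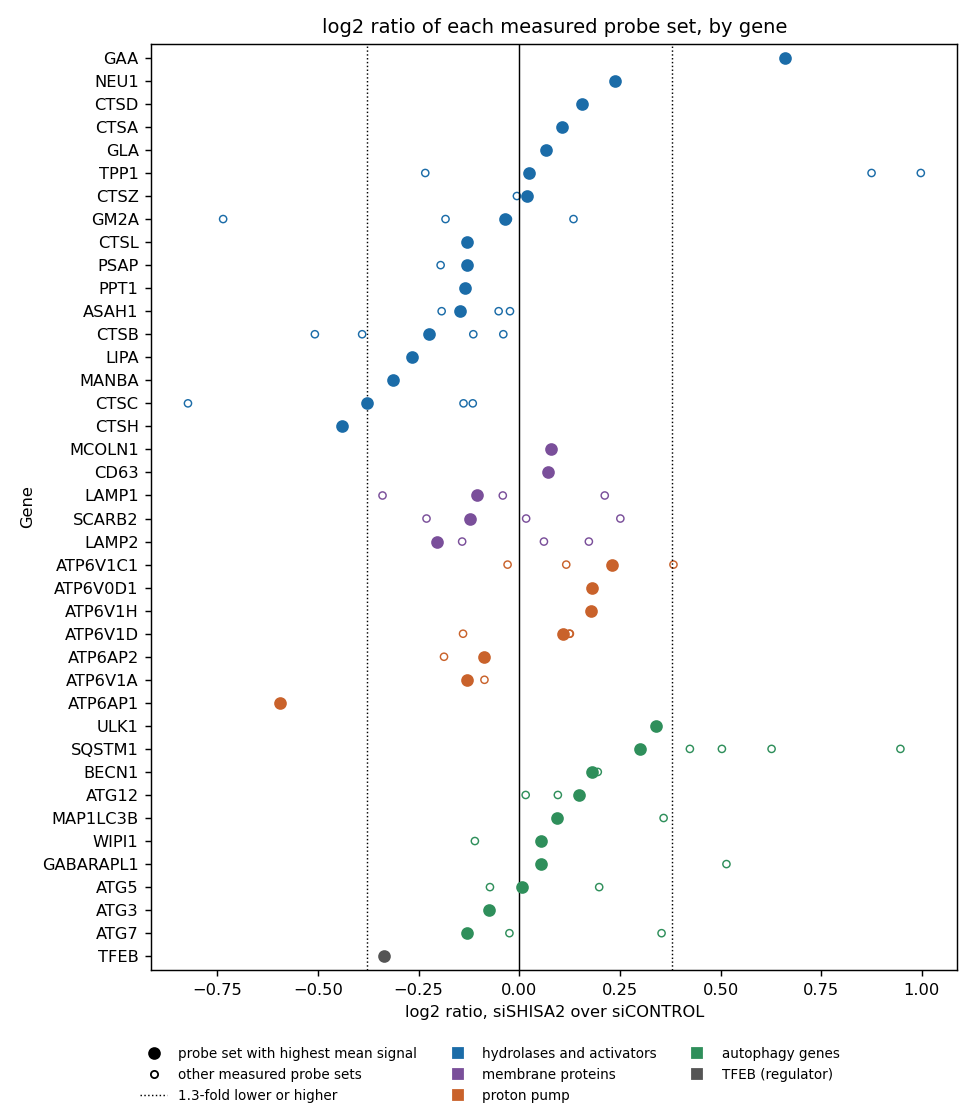
log2 ratio of siSHISA2 over siCONTROL (x axis) for every measured probe set of the 40 genes (rows, coloured by role), with the probe set of the highest mean signal filled, the others open, and 1.3-fold marked by dotted lines. All 5 SQSTM1 points lie right of 0 and all 5 CTSB and 4 CTSC points left of it, while the TPP1 points spread from -0.23 to 1.00.

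Probe sets of 1 gene shared a sign about as often as elsewhere. Of the 22 genes with several measured probe sets 11 had the same sign on all of them (50%, against 45.6% of 6428 genes). Their ratios ranged over a median of 0.32 within a gene, against 0.35 over the 6428 genes. By role, 5 autophagy genes were above 0 on all probe sets and none was below on all (SQSTM1, MAP1LC3B, GABARAPL1, BECN1 and ATG12, of 8). Over all 6428 genes 23.8% were above on all and 21.8% below on all. These counts were made on the deposited signals only. After division by the median signal the brightest probe sets of MAP1LC3B and GABARAPL1 read -0.05 and -0.09. Of the hydrolases and activators 4 were below 0 on all and none above on all (CTSB, CTSC, ASAH1 and PSAP, of 7). The pump genes ATP6AP2 and ATP6V1A were below 0 on both of theirs, and none of the 3 membrane protein genes with several had 1 sign.

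A further list of 116 genes of the same system was read in the same way, and 104 of them were measured. Of these 70 were above 0 (67.3%, against 52.2% of all measured genes), with a median of 0.06. After division by the median signal 34 of 104 were above 0 (32.7%, against 29.8%). At least 1.3-fold higher were 7 (10.8% in the background), of which 2, CTSF and TMEM175, are lower bounds because the control signal was under the floor, and at least 1.3-fold lower were 3 (9.30%).

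Of the other hydrolases 17 of 24 were above 0, against 52.2% of all measured genes. This list had a median of 0.03, while the hydrolases described above had 7 of 17 above 0 and a median of -0.13. The ends of the list of other hydrolases were far apart. CTSS, a cathepsin of antigen-presenting cells, read 233 with siCONTROL and 478 with siSHISA2 (1.04), with its other probe sets from 0.20 to 1.13. NAGLU, an enzyme of heparan sulfate breakdown, read 341.7 and 408.6 (0.26). MAN2B1, lysosomal alpha-mannosidase, read 845.5 and 492.5 (-0.78), and CTSV, a cathepsin close to CTSL, 870.9 and 609.4 (-0.52), each on 1 probe set. ARSB, arylsulfatase B, named after its value was seen, was the third gene 1.3-fold lower, at 384.6 and 289.4 (-0.41), with all 3 measured probe sets below 0. Leaving out the _x_at and _s_at probe sets put CTSS at 0.20.

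The other autophagy genes were also mostly above 0. Of 30 measured genes 23 were above 0, with a median of 0.10, 3 at least 1.3-fold higher (10.8% in the background) and none 1.3-fold lower (9.30%). ATG4D, a protease that trims LC3 family proteins, read 222.8 and 321.2 (0.53), and ATG9A, the membrane scramblase of the growing autophagosome, 584.7 and 819.7 (0.49). ATG2A, a lipid transfer protein named after its value was seen, was the third at 509.2 and 681.9 (0.42). BNIP3L, a mitophagy receptor, read 3526.5 and 3003.5 (-0.23, and 0.16 on its other probe set), and ATG4C 726.5 and 623.3 (-0.22). Over both lists 31 of 40 autophagy genes were above 0 (77.5%, against 52.2% of all measured genes), and the median was 0.10. These counts depend on the scaling. After division by the median signal 4 of the 10 autophagy genes described first were above 0, against 29.8% of all measured genes. The 30 others were not counted on their own at that setting.

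Other pump subunits were also mostly above 0, at 8 of 12 (against 52.2% of all measured genes) with a median of 0.14. None was 1.3-fold apart, against 10.8% of all measured genes higher and 9.30% lower. ATP6V0C, the proton-carrying ring subunit, read 4895 and 5659 (0.21), and ATP6V1E2 288.1 and 328.1 (0.19, and -0.32 on its other probe set). ATP6V0E2 (872.7 and 788.6, -0.15) and TCIRG1, an osteoclast-rich subunit of the membrane sector (786.8 and 723.2, -0.12), were lowest. None of the other pump subunits was as low as ATP6AP1.

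Other membrane proteins had a median of -0.03 with 5 of 13 above 0, against 52.2% of all measured genes. The cystine exporter CTNS read 302.1 and 406 (0.43), with 0.40 on its other measured probe set, and the chloride exchanger CLCN7 1054 and 1200.2 (0.19, with probe sets down to -0.33). LAMP3, a relative of LAMP1, read 4964 and 4107.5 (-0.27), and OSTM1, the partner of CLCN7, 3293 and 2806 (-0.23, with all 4 probe sets below 0).

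**Figure D3:**
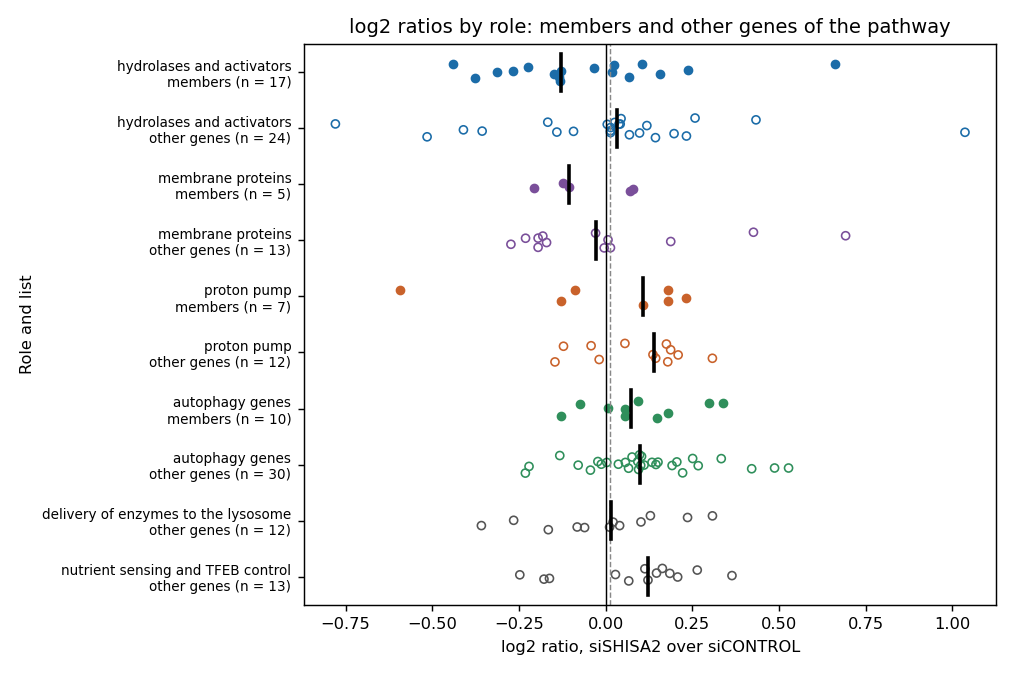
log2 ratio of siSHISA2 over siCONTROL (x axis) of each measured gene by role, for the 40 genes (filled, without TFEB) and the 104 other genes of the system (open), with black bars at each median, the dashed line at the median of all measured genes, and vertical scatter within a row added for legibility only. Both autophagy rows have medians above 0 (0.07 and 0.10), and the 2 hydrolase rows have medians on opposite sides of 0 (-0.13 and 0.03).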

How the data were processed

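Per the submitters' processing notes, the authors used MAS5 to make the deposited intensities, 1 per probe set and not on a log scale. Its version and scaling target are not stated. MAS5 sets perfect-match against mismatch probes, so low signals are noisy. The deposited intensities were used without further scaling. Probe sets were named through the platform annotation. Of 42898 listed probe sets 41097 have 1 gene symbol, 1801 have several and name no gene, and 11777 of the array are not listed. Identifiers of 41043 matched the RefSeq table of GRCh38.p14. The 62 control probe sets were left out. Ratios were computed with Python 3.11.15 and pandas 2.3.3, and the steps were tested on simulated data. No p-value was computed, since 1 array per group leaves no residual degrees of freedom. All 42 genes are named, and of the further list the 2 highest and 2 lowest per role with both signals above the floor. Genes and lists were chosen with earlier results of these data known. Alternatives were division by the median signal, quantile normalization, removal of a loess trend (span 0.3), floors at the 25th (11.3) and 75th percentile (387.3), a pseudocount of 1 in place of a floor, averaging over probe sets, and no _x_at or _s_at probe sets. Setting the median ratio of the measured probe sets to 0 was added after the data were seen.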

Additional observations from a re-analysis of the deposited data

How the results depend on the processing

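Division by the median signal moved the medians to -0.13 over the 40 genes, -0.27 for hydrolases and activators, -0.25 for membrane proteins, -0.034 for pump subunits and -0.067 for autophagy genes. It gave 10 genes above 0 in place of 21, and 6 at least 1.3-fold lower in place of 2. Of the further list it left 34 above 0 (70 as deposited), 3 at least 1.3-fold higher (7) and 8 lower (3). The median signals it divides by are 45.6 and 50.3. Of all 12907 genes measured at that setting 29.8% were above 0, 872 were 1.3-fold higher and 2230 lower. With the median ratio set to 0, 5 of the further list were 1.3-fold lower, against 1345 of 12931 genes. With the floor at the 75th percentile 0 of the 40 genes were 1.3-fold higher, 1 was lower, and 2 of the further list were higher, with fewer genes measured. Of all 8052 genes measured there 267 were higher and 378 lower. At that floor CTSS read 0.30 and CTNS 0.07 (1.04 and 0.43 as deposited). The floor at the 25th percentile gave 1 gene 2-fold apart (0 as deposited), and the share of all genes was not worked out at that floor. The mean over probe sets gave 3 genes 1.3-fold higher in place of 1, against 1389 of 12931 genes. Without _x_at and _s_at probe sets 27 of the 40 genes were measured, with 4 of them 1.3-fold higher, 0 lower, 13 above 0 and a hydrolase median of -0.035. Of all 10144 genes measured there 1260 were higher, 1072 lower and 51.4% above 0. Quantile normalization, loess and no floor left every summary within its spread or within 1.5 times its count. Relative to the median of all genes, 19 of 40 were above and 19 below it in all 5 scalings. Division by the median signal and setting the median ratio to 0 could hardly change these counts, since they shift nearly all ratios alike. None of the genes of either list that were 1.3-fold apart changed sign under an alternative that measured it. No paired analysis was possible because each group has 1 array.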

Other observations

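Genes that deliver enzymes to the lysosome and genes that sense nutrients on its surface were read in the same way. Of 12 measured delivery genes 7 were above 0, with a median log2 ratio of 0.02 (52.2% of all measured genes were above 0). IGF2R, the large mannose 6-phosphate receptor that carries new hydrolases from the Golgi, read 2576 with siCONTROL and 2009.5 with siSHISA2 (-0.36, and -0.24 on its other measured probe set). VPS11, a subunit of the tethering complexes of endosomes and lysosomes, read 775.5 and 645.2 (-0.27). Its partners VPS41, at 919.7 and 1139 (0.31, with all 3 probe sets above 0), and VPS18, at 336 and 395.8 (0.24), read the other way. None of the delivery genes was 1.3-fold apart, against 10.8% of all measured genes higher and 9.30% lower.

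Of 13 measured genes of nutrient sensing and TFEB control 10 were above 0, against 52.2% of all measured genes. Their median was 0.12, and none was 1.3-fold apart, against 10.8% higher and 9.30% lower. FLCN, folliculin, which acts on the Rag GTPases and thereby keeps TFEB out of the nucleus when nutrients are present, read 892.5 with siCONTROL and 1149 with siSHISA2 (0.36), with its measured probe sets from 0.16 to 0.88. LAMTOR4, of the Ragulator scaffold, read 3172.5 and 3810.4 (0.26). RRAGA, a Rag GTPase, read 3828.5 and 3225 (-0.25), and MITF, a transcription factor of the TFEB family, 812 and 717.8 (-0.18, and -0.04 on its other measured probe set).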
